A study of Mus musculus with 4 samples.

Results

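The connexin, pannexin and purinergic receptor genes examined here are *Gja1*, *Gjb2*, *Gjc1*, *Panx1*, *Panx3*, *P2rx4*, *P2rx7*, *P2ry2* and the junction scaffold gene *Tjp1*. These 9 genes were chosen by name from the 55450 genes of the count table. They were measured in MLO-Y4 cells, an osteocyte-like cell line from mouse long bone with a wild-type genotype (WT), derived from a mouse that carried an immortalizing gene under the osteocalcin promoter. All 4 libraries come from this 1 line. For the 2 loaded samples, cells were grown to 60% confluency on plates with a collagen-coated silicone membrane and then stretched in all directions for 12 h, with a strain of 20% and a frequency of 0.5 Hz. For the 2 unloaded samples, cells reached the same confluency on ordinary plates and stayed in the incubator of the same system for 12 h, so that stretch and plate cannot be told apart. The question was whether the genes of cell-to-cell channels and extracellular ATP signaling differed in transcript level after loading.

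Connexins assemble into hemichannels, and hemichannels of neighboring cells dock to form gap junctions, through which osteocytes exchange ions and small metabolites along their dendrites. Pannexins form large-pore membrane channels that release ATP without docking. Released ATP acts on P2X receptors, which are ATP-gated cation channels, and on P2Y receptors, which are G protein-coupled. In bone, stretch and fluid flow are known to open hemichannels and to start calcium signaling through these receptors.

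Promoter sequences of *Gja1*, *P2rx7* and *Gjb2* are shown because *Gja1* was the most abundant connexin, *P2rx7* the most abundant P2X receptor, and *Gjb2* had no count in any library. The sequences are the 250 bases before the RefSeq transcription start (GRCm38.p6), and 7 of the 9 genes had an entry. Capitals mark matches, on either strand, to TGANTCA (AP-1), TGACNNNGC (core of the antioxidant response element), GGGCGG (GC box) or TATAAA, a common core promoter motif. The *Gja1* window is chr10:56377050-56377299 on the plus strand, just upstream of the gene. The *P2rx7* window is chr5:122643677-122643926 on the plus strand, and its last bases lie within the first exon of the longer gene model in GENCODE M21, which starts at 122643911. The *Gjb2* window is chr14:57104703-57104952 on the minus strand, directly upstream of the gene.
Gja1: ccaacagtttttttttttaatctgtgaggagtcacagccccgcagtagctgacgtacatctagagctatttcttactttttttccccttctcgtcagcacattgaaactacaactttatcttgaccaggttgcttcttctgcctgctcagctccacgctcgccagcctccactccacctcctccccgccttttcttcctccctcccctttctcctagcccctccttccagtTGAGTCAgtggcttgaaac
P2rx7: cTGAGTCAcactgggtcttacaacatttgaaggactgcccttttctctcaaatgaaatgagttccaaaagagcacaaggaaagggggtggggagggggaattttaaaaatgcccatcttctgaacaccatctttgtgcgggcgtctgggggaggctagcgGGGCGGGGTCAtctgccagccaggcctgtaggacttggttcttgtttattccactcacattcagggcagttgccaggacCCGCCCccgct
Gjb2: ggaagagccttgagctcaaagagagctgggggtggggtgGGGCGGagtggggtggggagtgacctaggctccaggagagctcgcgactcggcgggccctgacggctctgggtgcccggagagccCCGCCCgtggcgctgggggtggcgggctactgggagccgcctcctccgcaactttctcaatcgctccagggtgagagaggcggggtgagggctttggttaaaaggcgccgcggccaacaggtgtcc

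The *Gja1* window held an AP-1 match (TGAGTCA) at -19 to -13 relative to the start. The *P2rx7* window held the same 7 letters near its far end, at -249 to -243 relative to the start. It also held a match to the antioxidant response element core (TGACCCCGC on the opposite strand) that overlapped a GC box. Among all 32851 promoter entries of 300 bases, 7.81% held TGANTCA, 12.4% TGACNNNGC, 35.7% GGGCGG and 13.6% TATAAA. Of the 9 entries of these 7 genes, 2 held an AP-1 match, 2 held the antioxidant response element core (*P2rx7* and *P2rx4*), 6 held a GC box and 0 held TATAAA. *P2ry2* and *P2rx7* have 2 entries each. Those of *P2ry2* overlap and both enter the count of GC boxes. The upstream *P2rx7* entry is the one shown, and its other entry held no match. The *Gjb2* entry had 27 CpG dinucleotides in 300 bases and the *Gja1* entry 8, against a median of 7 over all entries. Genes with counts spanned a similar range: *Tjp1* had 31, *P2ry2* 30 and 28, *Panx1* 25, *P2rx4* 18 and *P2rx7* 8 and 4. No measurement of binding or chromatin was analysed here, so these matches describe the letters alone.

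Library totals ranged from 28941994 to 32185693 counts. A floor of 3 counts corresponded to between 0.0930 and 0.103 CPM (counts per 1000000 after TMM normalization) and covers counting error only. Of the 9 genes, 7 had counts and passed the filter on low counts together with 16269 genes in all, and *Gjb2* and *Panx3* had 0 counts in every library. Each group held 2 libraries, and nothing in the labels says that they came from separate cultures, so that p-values measure only the spread between these libraries. Among the osteocyte markers, *Cd44* (654 to 749 CPM) and *Phex* (43.7 to 55.8 CPM) were present. *Pdpn*, encoding the dendrite protein podoplanin, had 143 and 151 CPM in unloaded and 215 and 228 CPM in loaded cells. Its log2 fold change of 0.59 was called by DESeq2 (adjusted p = 2.2e-08) but not by edgeR (adjusted p = 0.0334), and its part in the values below was not tested. *Dmp1* lay between 0.396 and 0.482 CPM, *Fgf23* at or under 0.297 CPM, *Sost* had 4 counts in 1 library, and *Mepe* had 0. *Dmp1*, *Fgf23*, *Sost* and *Mepe* were thus low or absent in both groups, while *Cd44*, *Phex* and *Pdpn* of the same list were present. In such bulk libraries, fewer cells that express a gene and less RNA of it per cell cannot be told apart.

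None of the 7 tested genes was called at an adjusted p under 0.01 in edgeR's quasi-likelihood test, in which 0.0983% of all tested genes were called. None was called by DESeq2 either, where 2.91% of genes were. At an unadjusted p under 0.05 the count was also 0, against 14.3% of all tested genes. The log2 fold change was positive for 5 and negative for 2 of them, with a median of 0.11, beside a median of -0.01 over all tested genes. The largest difference was that of *P2ry2* and the smallest that of *Tjp1*. The CPM values of the groups did not overlap for *Panx1*, which was higher in both loaded libraries, and for *Gjc1*, which was lower in both. Such a gap between groups occurred in 46.6% of all tested genes, with higher values in loaded cells in 22.1% and lower values in 24.5%.

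**Figure D1:**
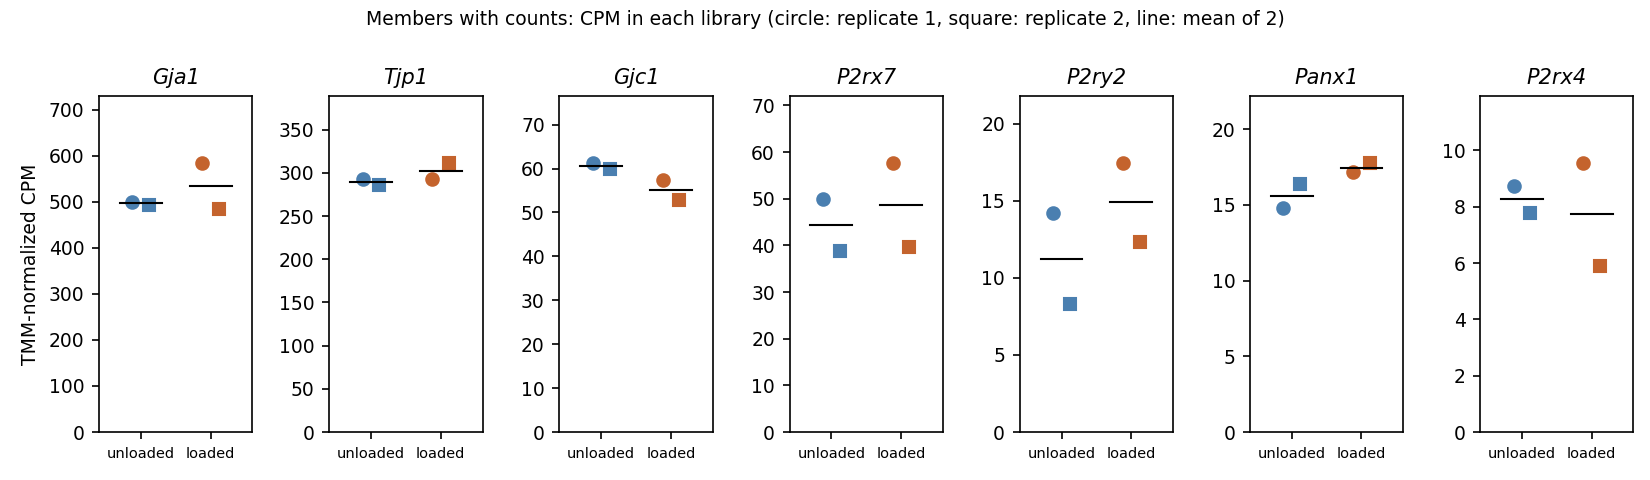
TMM-normalized CPM (y axes, each starting at 0) of the 7 genes with counts in the unloaded (blue) and loaded (orange) libraries. Circles are replicate 1, squares replicate 2 and lines the mean of 2. For *Gja1* the loaded replicate 1 stands at 584 CPM while the other libraries lie between 485 and 500.1 CPM, and for *P2rx7*, *P2ry2* and *P2rx4* replicate 1 lies above replicate 2 in both groups.

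*Gja1* encodes connexin Cx43, the main connexin of osteocytes, and lies on chromosome 10 from 56377330 to 56402513 (GRCm38, plus strand). Its counts were 14524 and 14957 without loading and 18853 and 14467 after loading. Normalized expression was 500.1 and 494 CPM in unloaded cells and 584 and 485 CPM in loaded cells. A single loaded library was high, and the other lay below both unloaded libraries. The means were 497 ± 4.63 CPM in unloaded and 535 ± 69.9 CPM in loaded cells (SD, n = 2 each). The log2 fold change was 0.11, with a standard error of 0.0929 and an edgeR adjusted p = 0.662. Its 95% interval ran from -0.12 to 0.33, or 0.920-fold to 1.26-fold. Without the loaded replicate 1 the log2 fold change was -0.03, so the sign rested on that library.

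By the smallest root mean square difference of mean-centered log2 CPM, the genes most like *Gja1* over the 4 libraries were *Prpf38b* (0.0119), *Metrn* (0.0130) and *Med31* (0.0141), among 9683 genes with at least 10 CPM. The median of this measure over those genes was 0.155. *Prpf38b* had 105 and 104 CPM in the unloaded libraries and 123 and 104 CPM in the loaded libraries. Its high value in the loaded replicate 1 follows from its choice by likeness to *Gja1* and is no separate observation.

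*Gjc1* encodes a connexin known from vascular and cardiac tissue as well as bone cells, and lies on chromosome 11 from 102799579 to 102819700. Normalized values were 61.2 and 59.9 CPM in unloaded and 57.5 and 52.9 CPM in loaded cells. Both loaded libraries lay below both unloaded libraries. The log2 fold change was -0.13 (standard error 0.0951, edgeR adjusted p = 0.583; 95% interval -0.37 to 0.10). The value lay between -0.19 and -0.08 with any 1 library removed. *Gjb2*, a connexin of epithelia and the inner ear on chromosome 14 (57098600 to 57104702), had 0 counts in all 4 libraries, which allows up to 0.103 CPM in the shallowest library.

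Connexins are compared per length below, as CPM per kb of annotated exon. Of 20 connexin genes, 5 were tested, 7 had counts but did not pass the filter, and 8 had no count. *Gja1* had a mean of 50.3 CPM per kb over the 4 libraries. *Gjb5*, a beta connexin best known from skin and placenta, had 16.6 CPM per kb and *Gjc1* 11.6, but with the longest transcript as length the values were 16.6 and 17.0. No connexin outside the 5 tested genes exceeded 0.448 CPM in any library.

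*Gjb2* lies between *Gja3* and *Gjb6* in a cluster of 99152 bp on chromosome 14, and these 3 genes had 0 counts in every library. None of the 5 tested connexins was called in either direction (edgeR). Of their log2 fold changes 4 of 5 were negative, where 48.5% of all tested genes had a positive value. The values lay between -0.19 and 0.11. At an unadjusted p under 0.05 (edgeR) the count was 0, against 14.3% of all tested genes. *Gjb5* was lower in both loaded libraries, at 25.4 and 28.1 CPM against 32.3 and 28.8 CPM, with an edgeR adjusted p = 0.505.

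*Gja1* made up 39.0% and 38.8% of the summed connexin level per length in unloaded cells and 45.2% and 38.7% in loaded cells. The loaded replicate 1 again stood apart. The difference of the group means, 38.9% and 41.9%, was within the spread of the loaded libraries (two-sided exact permutation test over libraries, p = 1, n = 2 per group, where the smallest possible p is 0.333). The share depends on the length used. The union of annotated exons of *Gja1* is 10257 bases but its longest transcript has 3889, and with the longest transcript of every gene the mean share was 62.1% in place of 40.4%.

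**Figure D2:**
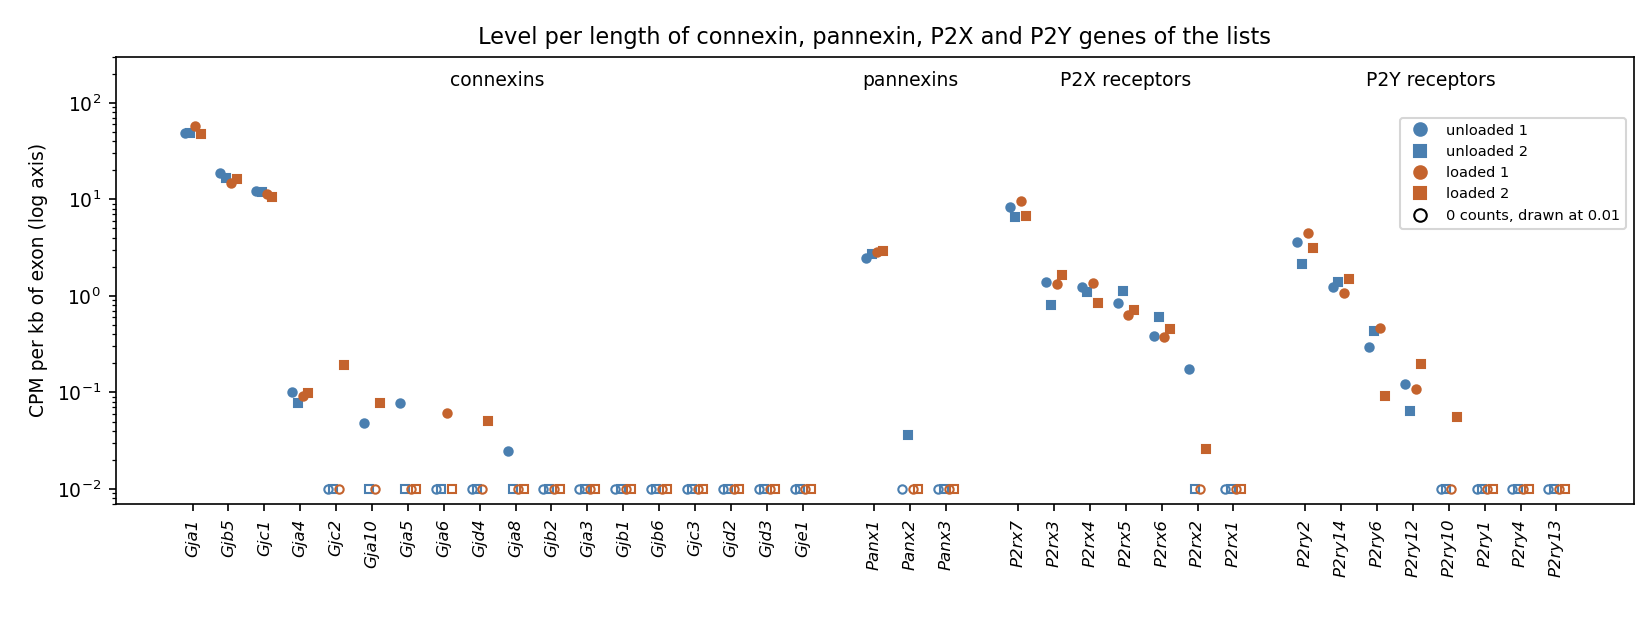
CPM per kb of exon (log y axis) in each library for connexin, pannexin, P2X and P2Y genes, ordered by mean level within each family. Blue marks unloaded and orange loaded libraries, circles replicate 1 and squares replicate 2, and open symbols drawn at 0.01 mark 0 counts. *Gja1* leads the connexins, and *P2rx7* and *P2ry2* lead their families.

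*Panx1*, which encodes the widely expressed pannexin channel, lies on chromosome 9 from 15002128 to 15045478. It had 430 and 496 counts in unloaded and 554 and 529 counts in loaded libraries, or 14.8 and 16.4 CPM against 17.2 and 17.7 CPM. Both loaded libraries were above both unloaded libraries by a small margin. The log2 fold change was 0.16 (standard error 0.128, edgeR adjusted p = 0.624), with a 95% interval from -0.15 to 0.48. Removing any 1 library left it between 0.10 and 0.24. *Panx3*, the pannexin of cartilage and differentiating osteoblasts (chromosome 9, 37659902 to 37669235), had 0 counts in every library. *Panx2*, chiefly a neural pannexin, had 4 counts in unloaded replicate 2 and 0 in the others. *Panx1* was therefore the pannexin detected in all libraries.

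*P2rx7* encodes the P2X receptor that responds to high ATP and is linked to inflammasome activation. It lies on chromosome 5 from 122643911 to 122691432, and *P2rx4*, which encodes a more ATP-sensitive P2X receptor, starts 16111 bp after its end. *P2rx7* had 49.9 and 38.7 CPM in unloaded and 57.6 and 39.7 CPM in loaded cells. The groups overlapped, and replicate 1 was the higher library in each. The log2 fold change was 0.13 (standard error 0.207, edgeR adjusted p = 0.827; 95% interval -0.37 to 0.64). It was -0.16 without the loaded replicate 1 and -0.04 without the unloaded replicate 2. Its exons share 119 bases with *Mir8115* on the same strand, to which 1 or 2 counts were assigned per library.

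*P2rx4* (chromosome 5, 122707544 to 122729738) had 254 and 236 counts in unloaded and 308 and 176 counts in loaded libraries. These were 8.75 and 7.79 CPM against 9.55 and 5.91 CPM, so the loaded libraries held both the highest and the lowest value. Loaded minus unloaded cells gave -0.10 on the log2 scale (standard error 0.262, edgeR adjusted p = 0.911), with a wide 95% interval from -0.74 to 0.54. The value became 0.21 without the loaded replicate 2 and -0.48 without the loaded replicate 1.

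Of the 7 P2X genes, 5 were tested and 0 were called in either direction (edgeR). The median log2 fold change of the tested P2X genes was -0.10. *P2rx7* led the family with a mean of 7.79 CPM per kb and made up between 64.0% and 72.3% of the summed P2X level per length. *P2rx3*, a sensory neuron receptor, had 1.29 CPM per kb and *P2rx4* 1.14, an order that reversed with the longest transcript as length (1.98 and 2.05). Its exons share 51 bases with *Ssrp1* on the opposite strand, which had between 9926 and 10388 counts, and the strand setting of the counting is not given in the sources used here. The *P2rx3* counts are uncertain for that reason. *P2rx5*, a P2X subunit, had 2.03 and 2.71 CPM in unloaded and 1.52 and 1.71 CPM in loaded cells, with an edgeR adjusted p = 0.513.

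*P2ry2* encodes a receptor for ATP and UTP that couples to phospholipase C, and lies on chromosome 7 from 100996568 to 101012866. It had 412 and 252 counts in unloaded and 563 and 368 counts in loaded libraries. Normalized expression was 14.2 and 8.32 CPM in unloaded and 17.4 and 12.3 CPM in loaded cells. The groups overlapped, since the unloaded replicate 1 exceeded the loaded replicate 2. At 0.41 on the log2 scale (standard error 0.294) the difference was the largest among the 7 tested genes, but it did not pass the threshold (edgeR adjusted p = 0.589). Its 95% interval, from 0.807-fold to 2.18-fold, includes both no change and a doubling. The value was 0.07 without the unloaded replicate 2 and 0.85 without the unloaded replicate 1.

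Of 8 P2Y genes, 3 were tested and 0 were called (edgeR). *P2ry14*, a receptor for UDP-sugars, had 13.5 and 15.5 CPM in unloaded and 11.9 and 16.6 CPM in loaded cells (log2 fold change -0.03, edgeR adjusted p = 0.970). *P2ry6*, a receptor for UDP, was low, with 25 and 38 counts in unloaded and 43 and 8 counts in loaded libraries. The ADP receptor genes *P2ry1* and *P2ry13* had 0 counts in every library, and *P2ry12* had between 5 and 15 counts.

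*Tjp1* encodes the scaffold protein of tight junctions that also binds the tail of Cx43 at the edge of gap junctions. The gene spans 65296165 to 65527781 of chromosome 7. Normalized values were 293 and 286 CPM in unloaded and 293 and 311 CPM in loaded cells. The loaded replicate 1 fell between the unloaded libraries. The 95% interval was the narrowest of the 7 genes, from 0.938-fold to 1.16-fold, around a difference of 0.06 on the log2 scale (standard error 0.0628, edgeR adjusted p = 0.718). Removing any 1 library left the value between 0.02 and 0.11.

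Per length, the 7 genes ordered as *Gja1* (47.3 to 57.0 CPM per kb over the 4 libraries), *Tjp1* (36.6 to 39.9), *Gjc1* (10.6 to 12.2), *P2rx7* (6.49 to 9.65), *P2ry2* (2.12 to 4.44), *Panx1* (2.46 to 2.94) and *P2rx4* (0.841 to 1.36). Neighbors in this order did not overlap between libraries, except *P2ry2* and *Panx1*, whose order held in 3 of 4 libraries. The channel and scaffold genes thus stood above the receptors by level, apart from *Panx1*.

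The receptor genes differed most between replicates. *P2ry2* was higher in replicate 1 than in replicate 2 by 0.77 in unloaded and 0.50 in loaded cells on the log2 scale. *P2rx7* was higher in replicate 1 by 0.37 and 0.54, and *P2rx4* by 0.17 and 0.69. The difference between the groups was smaller in size than at least 1 of these replicate differences for each of the 3 genes. The same held for *Gja1* (0.11, with 0.27 between loaded replicates) and *Tjp1* (0.06, with -0.09 between loaded replicates). It did not hold for *Gjc1* and *Panx1*. Among 8125 tested genes of 5 to 100 CPM, the median absolute replicate difference was 0.13 in unloaded and 0.14 in loaded cells. Replicate differences above 0.3 of the same sign in both groups, as in *P2ry2* and *P2rx7*, were found in 2.36% of these genes. This measure was chosen after the values were seen. The replicate numbers were not taken as pairs, so the shared sign depends on the numbering and no common pattern is read from it.

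**Figure D3:**
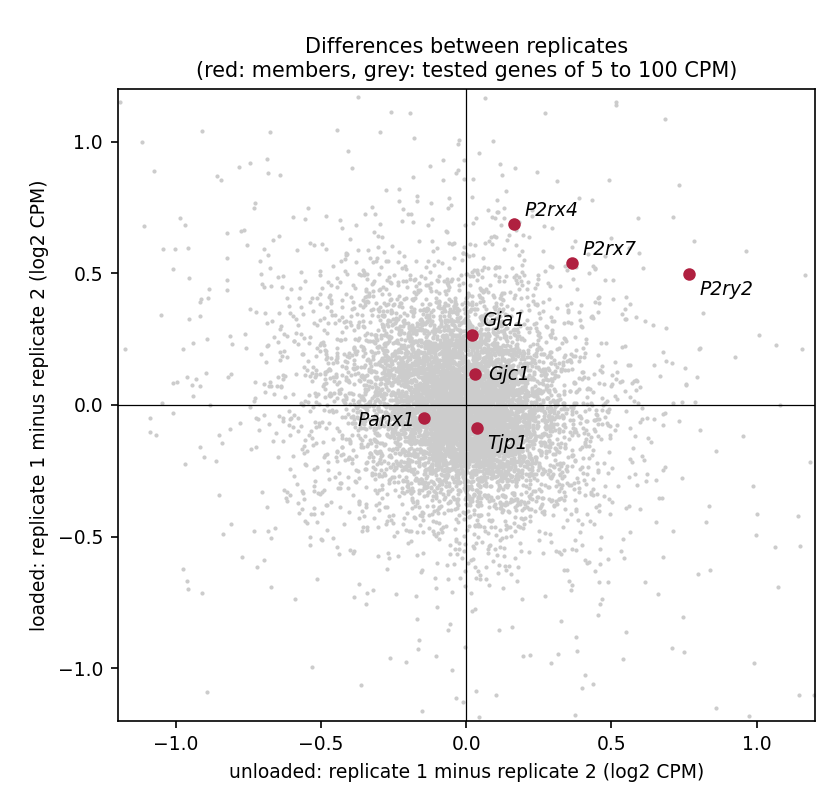
Log2 CPM of replicate 1 minus replicate 2 in unloaded (x axis) and loaded (y axis) cells. Red points are the 7 genes with counts and grey points the 8125 tested genes of 5 to 100 CPM, of which 102 lie outside the axes. *P2ry2*, *P2rx7* and *P2rx4* lie in the upper right, with replicate 1 higher in both groups, and *Gja1* lies at 0.02 and 0.27.

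The genes around these channels and receptors were taken from further lists. Together with the connexin, pannexin, P2X and P2Y lists above, the pathway lists held 87 genes, among them the 9 genes examined here. Of the 87, 49 were tested and 0 were called by edgeR or by DESeq2. At an unadjusted p under 0.05 (edgeR) there were 4, or 8.16% of the tested list genes, against 14.3% of all tested genes. The connexin, pannexin, P2X and P2Y lists held 0 of these 4. The list of ATP release and nucleoside transport held 2 among 8 tested genes. That of calcium signaling and the inflammasome held 2 among 9.

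Of 9 genes of extracellular nucleotide breakdown 5 were tested and 0 were called (edgeR), with a median log2 fold change of 0.10. *Entpd1*, which encodes an enzyme that degrades ATP and ADP, had 19.1 and 17.0 CPM in unloaded and 20.2 and 23.6 CPM in loaded cells. Both loaded libraries were higher, by 0.28 on the log2 scale (edgeR adjusted p = 0.421). *Ada*, encoding adenosine deaminase, was near it in level per length, at 3.61 CPM per kb against 3.58 for *Entpd1*, and with the longest transcript as length at 4.28 against 4.73. *Nt5e*, which encodes the enzyme that makes adenosine from AMP, had 1 and 10 counts in unloaded and 21 and 5 counts in loaded libraries. *Enpp3*, an ectonucleotidase gene, had 36 and 27 counts in unloaded and 43 and 16 in loaded libraries. Of the 4 adenosine receptor genes only *Adora2b* was tested, with a log2 fold change of 0.02 (95% interval -0.50 to 0.54, edgeR adjusted p = 0.980). *Adora2a* and *Adora3* had counts in 1 library each, 4 and 5.

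Other routes of ATP release and nucleoside transport were represented by 11 genes, of which 8 were tested and 0 called (edgeR). All 8 log2 fold changes were positive, with a median of 0.10 and a smallest value of 0.01, beside 48.5% positive among all tested genes. Only for *Lrrc8d* and *Lrrc8a* did the unadjusted 95% interval leave out 0. *Lrrc8d*, a subunit of the volume-regulated anion channel, had 19.6 and 37.8 CPM in unloaded and 59.1 and 56.1 CPM in loaded cells. Both loaded libraries were higher, and the unloaded libraries differed strongly from each other. Its log2 fold change was 1.003 (standard error 0.284, edgeR adjusted p = 0.193), and the gene was called only when the unloaded replicate 2 was left out. *Lrrc8a*, the obligatory subunit of the same channel, had 44.3 and 41.5 CPM against 50.2 and 50.7 CPM, higher by 0.23 on the log2 scale (edgeR adjusted p = 0.340). It shares 2853 exon bases with *Gm28035* on the same strand, which had between 0 and 42 counts. By level per length *Slc29a1*, the equilibrative nucleoside transporter, led the list with 16.7 CPM per kb, while *Lrrc8a* had 10.8 and the scramblase gene *Ano6* 10.4. With the longest transcript as length *Slc29a1* still led with 30.2, but *Ano6* (25.9) stood above *Lrrc8a* (10.9).

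Among 14 junction scaffold and gap junction partner genes 12 were tested and 0 were called (edgeR). The median log2 fold change was 0.05. *Nedd4*, which encodes a ubiquitin ligase of Cx43, had the highest level per length, 87.4 CPM per kb. Its CPM was 717 in unloaded replicate 1 and between 982 and 1088 in the other 3 libraries, so that the unloaded group was split. *Ezr*, encoding a linker of membrane and actin, had 57.1 CPM per kb, and *Ctnnb1*, encoding beta-catenin, 52.3, an order that reversed with the longest transcript as length (59.4 and 74.9). *Cav1*, encoding the caveolae protein, had 64.1 and 65.9 CPM in unloaded and 67.8 and 89.3 CPM in loaded cells (edgeR adjusted p = 0.448). *Cdh2*, encoding N-cadherin, had 128 and 129 CPM against 135 and 143 CPM (edgeR adjusted p = 0.512).

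Below the receptors, 9 of 11 genes of calcium signaling and the inflammasome were tested and 0 were called (edgeR). Of these, 7 log2 fold changes were negative, with a median of -0.08, where 48.5% of all tested genes had a positive value. *Plcb3*, which encodes a phospholipase C activated by Gq-coupled receptors, had 183 and 194 CPM in unloaded and 144 and 152 CPM in loaded cells. Both loaded libraries were lower. The log2 fold change was -0.35, with a 95% interval from -0.52 to -0.18. The edgeR adjusted p = 0.112 and the DESeq2 adjusted p = 0.0104 both missed the threshold. *Nlrp3*, encoding the inflammasome sensor, had 5.34 and 2.87 CPM in unloaded and 1.86 and 2.25 CPM in loaded cells (log2 fold change -0.997, edgeR adjusted p = 0.308). *Casp1*, the inflammasome protease gene, led the list by level per length with 60.5 CPM per kb and had a log2 fold change of -0.01, and *Gna11*, a Gq-class G protein gene, had 39.6 CPM per kb and 0.06. *Pycard* and *Il1b*, the adaptor gene and a target cytokine gene, did not pass the filter.

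**Figure D4:**
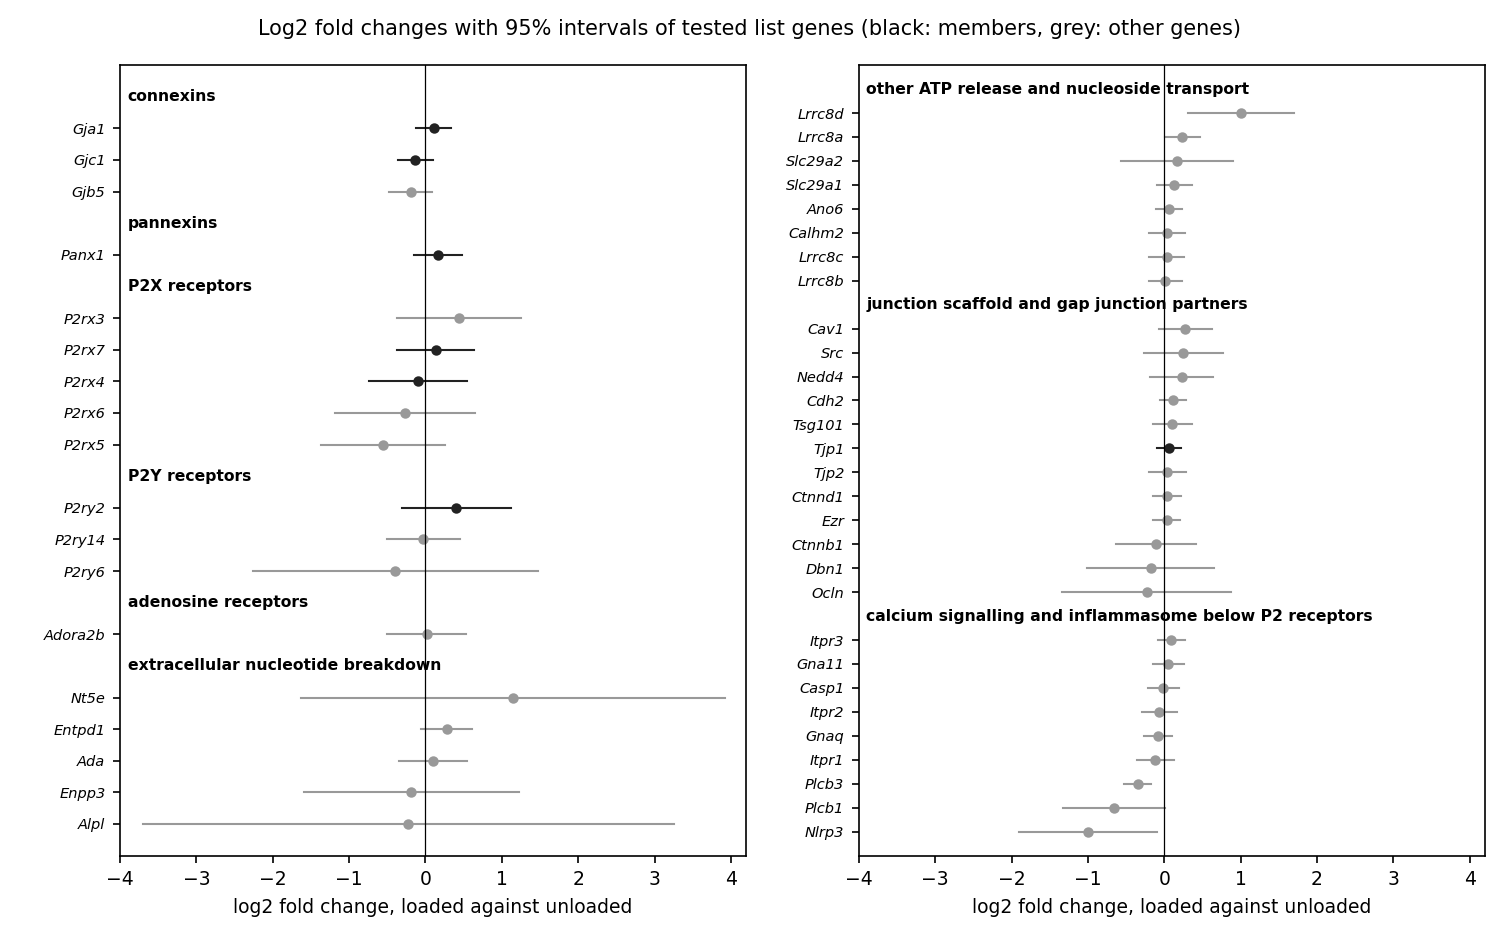
Log2 fold change of loaded against unloaded cells (x axis) with 95% intervals for tested genes of each pathway list, with members of the gene group in black and other genes in grey. The intervals of all 7 black points include 0, and *Lrrc8d*, *Lrrc8a*, *Plcb3* and *Nlrp3* are the genes whose unadjusted intervals do not.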

How the data were processed

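RNA-seq of 2 unloaded and 2 loaded MLO-Y4 samples was analysed from raw gene counts. After depletion of ribosomal RNA, the authors trimmed reads, mapped them to mm10 with HISAT2 2.1.0, assembled transcripts with StringTie 1.3.5 and deposited counts made with the prepDE script, without normalization. That script converts coverage into counts with a read length, so that the read length set would scale all counts. The read length, strandedness and annotation release are not given in the sources used here. Each of the 55450 identifiers was found in GENCODE M21 (GRCm38), from which positions and exon lengths were taken. The columns were assigned to the groups by reading their Ctr and Tre prefixes as control and treated and their suffixes as the replicate numbers of the sample titles.

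Genes were filtered with filterByExpr (count minimum 10), TMM-normalized and tested with edgeR 4.0.16 (glmQLFit and glmQLFTest) in R 4.3.3, with Benjamini-Hochberg adjustment over 16269 genes and the threshold of 0.01. The standard error is the log2 fold change divided by the root of F, and 95% intervals use the t quantile. Log2 CPM values of single libraries use a prior count of 2. The alternatives were DESeq2 1.42.0, limma-voom (limma 3.58.1), RLE and upper-quartile factors, 2 other filters, an adjusted p under 0.05, the replicate number as a block, leaving out each library, and the longest transcript as length. The fit was tested on simulated data. Figures were drawn with matplotlib 3.10.9.

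The genes and lists were chosen with earlier results of these data known. Named list genes are those called by edgeR or DESeq2, the 3 of highest level per length and the 2 of smallest p per list. Other names, such as *P2ry1*, *P2ry12*, *P2ry13*, *Pycard* and *Il1b*, were added after their values were seen. Protein sequences were not used here, and 2 list genes that enter the counts and sums are not reported individually.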

Additional observations from a re-analysis of the deposited data

How the results depend on the processing

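None of the 7 tested genes was called under any alternative, with adjusted p between 0.288 and 0.999. All 63 values from the 4 libraries kept their direction. They rest on the same libraries, and those at an adjusted p under 0.05 repeat the values of the main fit, so they could not reverse. Of 28 values with a library left out, 4 reversed. These were *Gja1* (-0.031) and *P2rx7* (-0.16) without the loaded replicate 1, *P2rx7* (-0.04) without the unloaded replicate 2 and *P2rx4* (0.21) without the loaded replicate 2. With each library left out, the log2 fold change ranged from -0.031 to 0.23 for *Gja1*, from -0.48 to 0.21 for *P2rx4* and from -0.16 to 0.38 for *P2rx7*. The cause was not tested. Where a library was left out, the lone library is assumed to vary like the other group.

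Over all genes, the 16 calls became 363 with DESeq2, 0 by edgeR without a filter on low counts (2435 at an unadjusted p under 0.05), 29 with at least 10 counts in every library and 147 at an adjusted p under 0.05. They were 50 and 58 without unloaded replicate 1 or 2 and 0 by edgeR without loaded replicate 1 or 2 (2225 and 2086 at an unadjusted p under 0.05), a range of 0 to 58. Among the list counts, which were 0, the list of ATP release and nucleoside transport ranged from 0 to 1. With the replicate block edgeR called 0 genes (1839 at an unadjusted p under 0.05), and *P2ry2* had a log2 fold change of 0.43 (unadjusted p = 0.0455, edgeR adjusted p = 0.429). Deviations of same-numbered libraries had a correlation of -0.06 over all tested genes and -0.12 over genes of at least 1 CPM, so the numbers were not taken as pairs. A crossed pairing, added after seeing the data, gave 2 calls.

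With the longest transcript as length, the level of *Gja1* was 133 CPM per kb, of *Tjp1* 42.0, of *Gjc1* 17.0 and of *P2rx4* 2.05, where the longest transcript of *P2rx4* has 1 exon. The order of the 7 genes was the same, and the *Gja1* share became 62.1%.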

Other observations

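Marker genes of other cell types were counted beside the osteocyte markers. *Csf1r*, the receptor gene of macrophages and their precursors, had between 1558 and 1584 CPM in the 4 libraries, a level per length of 272 CPM per kb, above the 50.3 CPM per kb of *Gja1*. Its exons share 873 bases with *Hmgxb3* on the opposite strand, which had between 1481 and 1968 counts. The defining markers *Ptprc*, *Adgre1* and *Acp5* of the macrophage and osteoclast list were at or under 0.155 CPM in every library. *Cd68* had 5.58 and 4.65 CPM in unloaded and 3.07 and 2.82 CPM in loaded cells (edgeR adjusted p = 0.216), and *Ctsk* had 5.13 and 4.85 CPM against 7.93 and 7.35 CPM (edgeR adjusted p = 0.228). No gene of this list was called.

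Among 6 osteoblast markers *Col1a1* (931 to 1032 CPM) and *Runx2* (48.5 to 56.4 CPM) were present, while *Sp7*, *Bglap*, *Alpl* and *Ibsp* did not exceed 0.775 CPM. The summed level of 4 endothelial markers lay between 2.18 and 3.37 CPM in unloaded and 1.71 and 2.91 CPM in loaded libraries. Within it *Kdr*, a receptor gene for vascular growth factor, had 0 and 0 counts in unloaded and 17 and 14 counts in loaded libraries (unadjusted p = 0.00425, edgeR adjusted p = 0.135). *Cdh5* had 61 and 32 counts in unloaded and 38 and 27 in loaded libraries, and *Pecam1* had 29 and 29 against 32 and 0. For 3 chondrocyte markers, nearly all of it *Sox9*, the sum lay between 17.8 and 18.1 CPM in unloaded and 20.2 and 20.9 CPM in loaded libraries. The 3 adipocyte markers had 0 counts except for *Plin1*, with 0.134 CPM in 1 loaded library. None of these lists held a called gene, and their part in the values of the connexin and receptor genes was not tested.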
